A study of Mus musculus with 18 samples.

Results

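Retinoic acid is made from vitamin A inside cells and acts as a ligand of nuclear receptors. Retinol is first oxidised to retinaldehyde and then to retinoic acid, which binds small carrier proteins, activates RAR receptors paired with RXR receptors on DNA, and is removed by CYP26 enzymes. Several genes of the pathway are themselves switched on by retinoic acid, and P19 cells are known for differentiating along the neural lineage when it is added to the medium.

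The 10 genes described here were chosen by symbol, and all 10 were found among the 55450 genes of the table. They are the receptors Rara, Rarb, Rarg and Rxra, the carriers Crabp1 and Crabp2, the retinol and retinaldehyde enzymes Rdh10 and Dhrs3, the retinoic acid-making enzyme Aldh1a2 and the retinoic acid-clearing enzyme Cyp26a1. Their mRNA was measured in P19, a mouse embryonic carcinoma line, with 6 samples each of WT cells (Dicer +/+), HetKO cells (Dicer +/-) and HM cells (Dicer HM/-), 18 samples in all. Per the study's methods, HetKO cells carry a CRISPR-made truncation of a single Dicer allele, and HM cells were made from HetKO by placing a hotspot mutation of the RNase IIIb domain on the remaining full-length allele. HM cells thus carry both the truncation of HetKO and the hotspot mutation. No age applies and the labels name no treatment, so no sample is labelled as having been given retinoic acid. Each genotype is a single line, and the effect of a genotype and the history of its clone cannot be told apart.

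The values are TPM, transcript abundances scaled by gene length and to a fixed total per sample, so the reads behind a value are unknown and levels of different genes can be set side by side. The edited gene Dicer1 averaged 52.3 TPM in WT, 48.0 in HetKO and 40.3 in HM. The pluripotency markers summed to 2447 to 3108 TPM in every sample, most of it Pou5f1 at a mean of 2040 to 2095 TPM in the 3 lines. Of the 7, 3 were higher and 2 lower in HM than in WT by limma, among them Sox2 at 0.66 and Utf1 at 0.81, and Nanog at -1.24 and Sall4 at -1.83, and the part of this in the members' levels was not tested. The neural markers summed to 45.5 to 98.7 TPM, with Neurog1 near 0. The endoderm markers summed to 5.38 to 18.3 TPM. Mesoderm markers summed to 16.9 to 23.6 TPM in WT, 31.7 to 67.6 in HM and 11.7 to 196 in HetKO, where replicates 2 and 5 were highest. T and Eomes made up most of these sums. Tbx6 of the same list was lowest in HM, with a mean of 2.76 TPM in WT, 2.235 in HetKO and 0.86 in HM. By the spread of log2 differences over 683 highly expressed genes, samples within HetKO and HM formed alike pairs, HetKO replicates 1 and 4, 2 and 5, and 3 and 6, and HM replicates 1 and 4, 2 and 3, and 5 and 6. WT replicates 1 and 4 stood apart from the other 4, which were nearly as alike across as within the pairs 2 and 5 and 3 and 6 used here. The labels do not say whether samples are separate cultures, so p-values measure only the spread between samples, which may be technical. Member calls that were lost with pair means as 3 replicates per line are named below.

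Between HM and WT, 6 of the 9 members that could be tested changed. The receptor Rarb, the carrier Crabp2 and the enzymes Dhrs3 and Rdh10 were lower in HM, with mean TPM 4.05-fold, 2.83-fold, 2.66-fold and 1.31-fold below WT. The receptors Rxra and Rarg were higher, 1.46-fold and 1.20-fold. The tests were limma fits of log2(TPM + 1), a scale that understates the change of low genes. Genes entered a fit if they averaged 1 TPM or more across the 12 samples compared, and a Benjamini-Hochberg adjusted p under 0.05 over all of them was called. In that comparison 51.4% of the 14043 genes tested were called, 19.4% higher and 32.0% lower, so 2 higher and 4 lower of 9 members is close to the background. The median log2 fold change of the members was -0.02, beside -0.09 over all genes. In bulk samples, fewer cells of a type and less RNA per cell cannot be told apart.

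**Figure D1:**
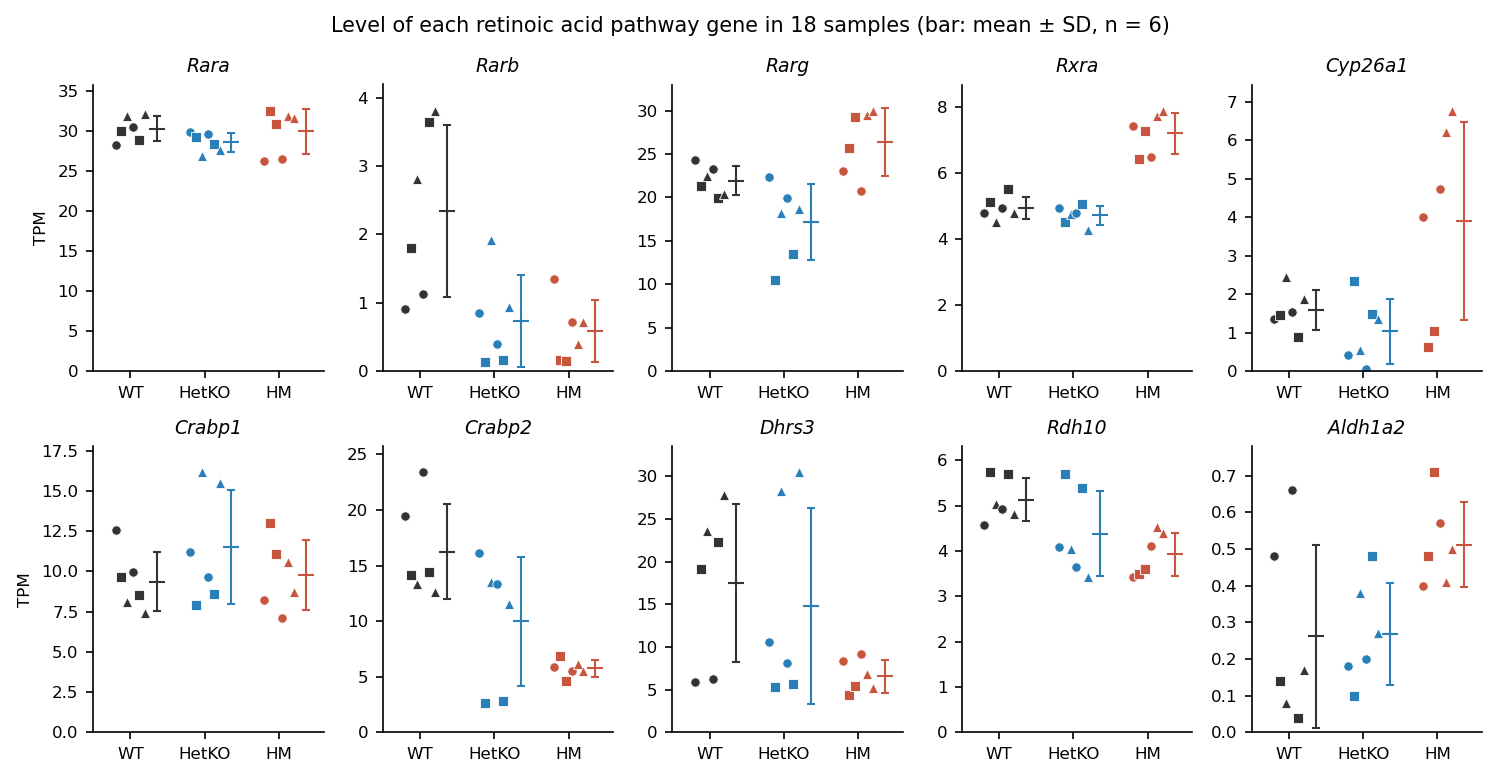
TPM of the 10 genes (y axis, linear, from 0) in each of the 6 samples of WT, HetKO and HM cells (x axis), with points for samples, 1 shape for each alike pair within a line, and bars for the line mean and SD. Crabp2 lay at 4.59 to 6.87 TPM in HM and at 12.63 to 23.4 in WT, and Rxra at 6.44 to 7.9 in HM and at 4.51 to 5.53 in WT, whereas Dhrs3 spread from 5.88 to 27.77 within WT.

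By level, Rara stood first in WT with a mean of 30.2 TPM, followed by Rarg at 21.9, Dhrs3 at 17.5, Crabp2 at 16.2, Crabp1 at 9.37, Rdh10 at 5.13, Rxra at 4.94, Rarb at 2.35, Cyp26a1 at 1.58 and Aldh1a2 at 0.262. The WT ranges of Rarg, Dhrs3 and Crabp2 overlapped one another, as did those of Dhrs3 and Crabp1, of Rdh10 and Rxra and of Rarb and Cyp26a1. The genes were read in the same samples, so an overlap of ranges does not show equal levels. Rarg, for example, was above Crabp2 in each WT replicate but 4, with 23.28 and 23.4 TPM there. In HM the order by mean was Rara, Rarg, Crabp1, Rxra, Dhrs3, Crabp2, Rdh10, Cyp26a1, Rarb and Aldh1a2, with overlapping ranges among neighbours such as Crabp1, Rxra and Dhrs3. Crabp2 and Dhrs3 thus stood above Crabp1 by mean in WT and below it in HM, while Crabp1 itself had a mean of 9.37 ± 1.85 TPM (SD, n = 6) in WT and 9.79 ± 2.16 TPM (SD, n = 6) in HM. For Dhrs3 this did not hold in every sample. It was below Crabp1 in WT replicates 1 and 4 (5.88 and 6.22 TPM beside 12.6 and 9.98). In HM replicates 1 and 4 it was above Crabp1 (8.35 and 9.24 TPM beside 8.23 and 7.14).

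Among the receptors, Rara encodes the RAR that most cell types carry. It lies on chromosome 11 (GRCm38, 98927818 to 98974942, plus strand). Its TPM ran from 28.21 to 32.07 in WT (median 30.25), from 26.83 to 29.82 in HetKO (median 28.76) and from 26.2 to 32.53 in HM (median 31.21). The 3 lines overlapped, and in HM the log2 fold change relative to WT was -0.02 (standard error, SE, 0.07, limma adjusted p = 0.839). Its line means were 30.2 ± 1.55 TPM in WT, 28.6 ± 1.18 in HetKO and 29.9 ± 2.81 in HM (SD, n = 6 each), the most even of the members.

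Rarg encodes another RAR, prominent in undifferentiated embryonic cells, and lies on chromosome 15 (102234938 to 102257517, minus strand). Its TPM was 19.88 to 24.3 in WT (median 21.9), 10.47 to 22.37 in HetKO (median 18.43) and 20.69 to 30.02 in HM (median 27.5). The HM samples were mostly higher than those of the other lines, but replicates 1 and 4 of HM, at 23.03 and 20.69 TPM, lay within the WT range. The log2 fold change was 0.25 in HM relative to WT (SE 0.10, limma adjusted p = 0.0467) and 0.62 between HM and HetKO (SE 0.17, limma adjusted p = 0.0129), with overlapping samples in both. Besides the limit of 1.5-fold, the call against WT was lost in 6 alternatives. The limma adjusted p was 0.222 on pair means, 0.129 without HM replicates 2 and 3, 0.105 with the replicate number as a block, 0.165 with the 3 lines in a single fit and 0.0784 with no filter. In the test with unequal variances, which does not use limma, the adjusted p was 0.0734. On pair means the call against HetKO was lost too (limma adjusted p = 0.164).

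Rxra encodes an RXR, the partner with which RARs bind DNA and which also pairs with other nuclear receptors. It lies on chromosome 2 (27676440 to 27762957, plus strand). It measured 4.51 to 5.53 TPM in WT (median 4.87), 4.27 to 5.05 in HetKO (median 4.78) and 6.44 to 7.9 in HM (median 7.36). Every HM sample was above every sample of the other lines, while WT and HetKO overlapped. The log2 fold change was 0.47 in HM relative to WT (SE 0.08, limma adjusted p = 0.0004) and 0.52 between HM and HetKO (SE 0.09, limma adjusted p = 0.000812). The call against WT held in each alternative fit without a size limit, and the one against HetKO was lost on pair means (limma adjusted p = 0.113). The tested genes within 5 Mb of Rxra had a median log2 fold change of -0.03 between HM and WT, over 169 genes.

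Rarb encodes the RAR whose own transcription is a standard readout of retinoic acid, through a response element in its promoter. It lies on chromosome 14 (16430839 to 16819156, minus strand). Its TPM was 0.9 to 3.81 in WT (median 2.31), 0.13 to 1.91 in HetKO (median 0.62) and 0.14 to 1.35 in HM (median 0.555). The ranges of HM and WT overlapped between 0.9 and 1.35 TPM, where the low WT replicates 1 and 4 (0.9 and 1.12 TPM) met the highest HM sample, replicate 1. Rarb entered this fit through its WT level, since its HM mean was under 1 TPM. Relative to WT, the log2 fold change in HM was -1.04 (SE 0.27, limma adjusted p = 0.00593), and on pair means the call was lost (limma adjusted p = 0.0652). In HetKO it was -0.94 relative to WT (SE 0.30, limma adjusted p = 0.0608), past the threshold when the 3 lines shared a single fit (limma adjusted p = 0.0383). Rarb entered that comparison too through its WT level, since its HetKO mean was under 1 TPM, which fixes its direction. Between HM and HetKO, Rarb had a mean under 1 TPM and was not tested, with means of 0.580 ± 0.454 TPM (SD, n = 6) in HM and 0.730 ± 0.671 TPM (SD, n = 6) in HetKO. The 48 tested genes within 5 Mb of Rarb had a median of -0.31 between HM and WT, below that of all genes, and the part of this in the Rarb result was not tested.

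Cyp26a1 encodes the enzyme that clears retinoic acid in the early embryo and, like Rarb, is a well-known gene induced by its own substrate. It lies on chromosome 19 (37697798 to 37701536, plus strand). Its TPM was 0.88 to 2.44 in WT (median 1.495), 0.04 to 2.35 in HetKO (median 0.94) and 0.62 to 6.78 in HM (median 4.38). HM replicates 1, 4, 5 and 6, at 4.02, 4.74, 6.21 and 6.78 TPM, exceeded every WT and HetKO sample, and HM replicates 2 and 3, at 0.62 and 1.03 TPM, lay within or below the WT range. The log2 fold change was 0.72 in HM relative to WT (SE 0.37, limma adjusted p = 0.124) and 1.15 between HM and HetKO (SE 0.42, limma adjusted p = 0.050002). Without HM replicates 2 and 3 these became 1.32 (limma adjusted p = 0.000234) and 1.75 (limma adjusted p = 0.00185), and the call against WT was made in no other setting. HM replicates 2 and 3 are the lowest HM samples of Cyp26a1, so leaving them out raises both values by construction, and they are a description only. The value against HetKO, at the threshold, was also called in 4 settings that kept HM replicates 2 and 3, with genes of at least 1 TPM in 6 samples (limma adjusted p = 0.0477), centred (0.0397), with the 3 lines in a single fit (0.0188) and without HetKO replicates 2 and 5 (0.025), and on pair means its limma adjusted p was 0.247. HetKO replicates 2 and 5 are the highest HetKO samples of Cyp26a1, so leaving them out also favours the call by construction.

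The promoter windows of Rarb and Cyp26a1 are shown because each holds the kind of element through which RAR and RXR bind. The search took 250 bases before to 50 after each start site in RefSeq (GRCm38.p6) and looked on both strands for pairs of hexamers in the same direction with 5, 2 or 1 bases between. Each hexamer was AGGTCA or its variant AGTTCA, else GGGTCA or its variant GGTTCA. With 5 bases between, 32 of 32851 promoters (0.0974%) held a match, and among the 8 members with a promoter in the RefSeq table these were Rarb and Cyp26a1. Capitals mark the match, and both lines read 5′ to 3′ on the gene's strand.
Rarb, chr14:16575506-16575535, minus strand: gggaagGGTTCACCGAAAGTTCActcgcat
Cyp26a1, chr19:37697770-37697799, plus strand: taaagaTGAACTTTGGGTGAACTaatttgt
The Rarb match spans -53 to -37 from a RefSeq start site that lies inside the span of the gene given above. That of Cyp26a1 spans -32 to -16 and lies on the opposite strand, where it reads AGTTCACCCAAAGTTCA. No member promoter held a repeat with 2 or 1 bases between, which 0.268% and 0.222% of all promoters did. Crabp2 and Rdh10 were not among the RefSeq promoters used here. The TPM of a gene does not separate its start sites. In HM, the mean of Rarb was 4.05-fold below and that of Cyp26a1 2.46-fold above WT, the latter without passing the test. Of the 31 genes with such a match with 5 bases between, 5 were tested between HM and WT, Rarb and Cyp26a1 among them. Of these, 1 was higher and 1 lower, the latter Rarb itself, beside 19.4% and 32.0% of all genes tested.

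Of the carriers, Crabp2 encodes the protein that brings retinoic acid to nuclear receptors, and lies on chromosome 3 (87948666 to 87953376, plus strand). It measured 12.63 to 23.4 TPM in WT (median 14.3), 2.61 to 16.08 in HetKO (median 12.45) and 4.59 to 6.87 in HM (median 5.70). All HM samples were below all WT samples. The HetKO samples fell apart, with replicates 2 and 5 at 2.61 and 2.81 TPM, below every HM sample, and the other 4 at 11.56 to 16.08 TPM, above every HM sample. Relative to WT, the log2 fold change in HM was -1.33 (SE 0.14, limma adjusted p = 2.03e-05), and this call held in every alternative fit. It was -0.87 in HetKO relative to WT (SE 0.39, limma adjusted p = 0.171) and -0.46 between HM and HetKO (SE 0.38, limma adjusted p = 0.366). Without HetKO replicates 2 and 5, the value against HetKO was -1.12 (limma adjusted p = 6.94e-05). As these are the lowest HetKO samples of Crabp2, leaving them out favours this result by construction, and it is a description only. In those same HetKO replicates 2 and 5, the mesoderm genes T and Eomes measured 110.46 and 66.17 TPM and 80.75 and 67.94 TPM, against 0.94 to 9.13 and 7.02 to 15.51 TPM in the other HetKO samples. The mesoderm gene Tbx6 was not raised there, at 2.73 and 1.94 TPM beside 1.92 to 2.41 in the others. The part of the T and Eomes difference in the Crabp2 levels was not tested.

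Crabp1 encodes a related carrier that holds retinoic acid in the cytoplasm, and lies on chromosome 9 (54764748 to 54773110, plus strand). It ran from 7.39 to 12.6 TPM in WT (median 9.09), 7.93 to 16.18 in HetKO (median 10.46) and 7.14 to 13.04 in HM (median 9.65). The lines overlapped, with log2 fold changes of 0.05 between HM and WT (limma adjusted p = 0.786), 0.24 between HetKO and WT (limma adjusted p = 0.394) and -0.19 between HM and HetKO (limma adjusted p = 0.448).

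**Figure D2:**
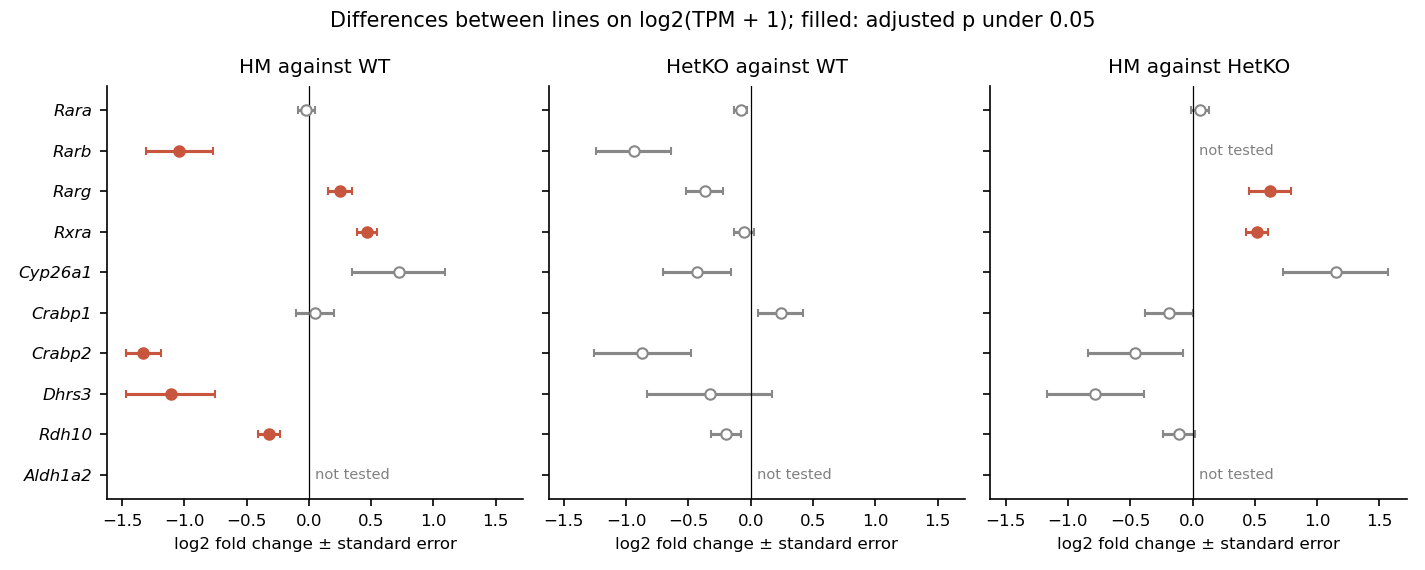
Log2 fold change of each gene on the log2(TPM + 1) scale (x axis) for HM against WT, HetKO against WT and HM against HetKO, with bars of 1 standard error and filled symbols where the limma adjusted p was under 0.05. Crabp2 at -1.33, Dhrs3 at -1.11 and Rarb at -1.04 lay farthest below 0 between HM and WT, while no symbol is filled between HetKO and WT.

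Dhrs3 encodes a reductase that turns retinaldehyde back into retinol, and is another gene induced by retinoic acid. It lies on chromosome 4 (144892827 to 144928209, plus strand). Its TPM was 5.88 to 27.77 in WT (median 20.7), 5.38 to 30.51 in HetKO (median 9.40) and 4.38 to 9.24 in HM (median 6.11). High samples were present in WT and HetKO and absent from HM. In WT, replicates 1 and 4 averaged 6.05 TPM, beside 20.7 for replicates 2 and 5 and 25.7 for replicates 3 and 6, and in HetKO the pairs averaged 9.40, 5.54 and 29.4 TPM in the same order. The pair means of HM were 8.79, 4.90 and 6.01 TPM. Relative to WT, its log2 fold change in HM was -1.11 (SE 0.36, limma adjusted p = 0.0203), with overlapping samples. The call was lost on pair means (limma adjusted p = 0.126), without HM replicates 2 and 3 (0.0817) and with the replicate number as a block (0.0541). It was also lost in the test with unequal variances, which does not use limma (adjusted p = 0.0618). Dhrs3 did not pass between HetKO and WT at -0.33 (limma adjusted p = 0.69), and between HM and HetKO its value of -0.78 (limma adjusted p = 0.139) became -1.26 without HetKO replicates 2 and 5 (limma adjusted p = 0.014). Those are the lowest HetKO samples of Dhrs3, so leaving them out favours this result by construction.

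Rdh10 encodes the dehydrogenase that makes retinaldehyde from retinol in the embryo, and lies on chromosome 1 (16105774 to 16133734, plus strand). It measured 4.58 to 5.74 TPM in WT (median 4.98), 3.42 to 5.69 in HetKO (median 4.07) and 3.43 to 4.52 in HM (median 3.87). All HM samples were below all WT samples, by a small margin, and the HetKO samples spanned both. Relative to WT, the log2 fold change in HM was -0.32 (SE 0.09, limma adjusted p = 0.0116), beside a median of -0.24 for the 26 tested genes within 5 Mb. The call was lost on pair means (limma adjusted p = 0.155) and when samples were centred on their median, at -0.14 (limma adjusted p = 0.238), or quantile normalized, at -0.09 (limma adjusted p = 0.496). These scalings moved the median of all genes from -0.09 to 0.08 and 0.02, and the share of called genes that were higher in HM from 37.7% to 61.0% and 51.1%. Rarb, Crabp2, Dhrs3, Rarg and Rxra kept their direction and their call under both scalings.

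Aldh1a2 encodes the enzyme that makes most retinoic acid in the early embryo, and lies on chromosome 9 (71215789 to 71296243, plus strand). It stayed under 1 TPM in every sample, at 0.04 to 0.66 TPM in WT (median 0.155), 0.1 to 0.48 in HetKO (median 0.235) and 0.4 to 0.71 in HM (median 0.49). The HM mean of 0.512 ± 0.116 TPM (SD, n = 6) was above those of WT and HetKO, 0.262 ± 0.250 and 0.268 ± 0.140 TPM (SD, n = 6 each), with overlapping samples. Aldh1a2 was below the filter in every comparison. With no filter on low values the log2 fold change was 0.28 between HM and WT (limma adjusted p = 0.0959) and 0.26 between HM and HetKO (limma adjusted p = 0.0435).

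Between HetKO and WT, none of the 9 tested members passed in limma, where 10.2% of 13999 genes did, 3.71% higher and 6.44% lower. At an unadjusted limma p under 0.05 there were 3, Rarb, Rarg and Crabp2, all lower in HetKO. In the test with unequal variances 1, Rarb, was lower at an unadjusted p under 0.05, and 0 were called after adjustment. With the 3 lines in a single limma fit 1 was called, Rarb. As Rarb passed the filter only through its WT level, its direction here was fixed. Without HetKO replicates 2 and 5, 1 was called too, Rdh10 at -0.35 (limma adjusted p = 0.0357). Those are the highest HetKO samples of Rdh10, so leaving them out favours this call by construction. The median over the 9 members was -0.33, beside -0.03 over all genes.

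Between HM and HetKO, 8 members were tested, with Rarg and Rxra higher and 0 lower, where 34.6% of 13762 genes passed, 14.0% higher and 20.6% lower. No member was lower at an unadjusted p under 0.05 either, and the test with unequal variances called 0 lower as well. Without HetKO replicates 2 and 5, 2 were lower, Crabp2 and Dhrs3, and 3 were higher, Cyp26a1 with Rarg and Rxra. These replicates are the lowest HetKO samples of Crabp2 and Dhrs3 and the highest of Cyp26a1, so the added calls are favoured by construction. On pair means, 0 members passed in this comparison. The comparisons share samples, so their values stand side by side and are not independent of each other.

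Several members varied together across samples, also within a line. Rarb and Dhrs3, both known as retinoic acid-induced genes, had a Pearson correlation of log2(TPM + 1) of 0.81 over the 18 samples and 0.86 after the line means were taken out. In WT, replicates 1 and 4 were the lowest for both genes, with pair means of 1.01 TPM for Rarb and 6.05 TPM for Dhrs3, and in HetKO replicates 3 and 6 were the highest, with 1.42 and 29.4 TPM. Crabp2 was opposite in WT, where replicates 1 and 4 were the highest, at a pair mean of 21.4 TPM beside 14.3 and 13.0. The WT replicates 1 and 4 also differed in pluripotency markers, with Dppa5a at 41.59 and 37.54 TPM beside 2.90 to 3.75 in the other 4, and Nanog at 28.36 and 26.39 TPM beside 52.49 to 62.42. The part of that difference in the Rarb, Dhrs3 and Crabp2 levels was not tested.

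Rarg and Crabp2 had a correlation of 0.28 over all 18 samples and 0.80 within lines. In HetKO both were lowest in replicates 2 and 5, at 10.47 and 13.46 TPM for Rarg and 2.61 and 2.81 TPM for Crabp2, while HM combined the highest Rarg with low Crabp2. Crabp2 and Rdh10 stood at 0.03 over all samples and -0.73 within lines. Cyp26a1 did not follow Rarb, at -0.02 and 0.13. Its lowest HetKO pair was replicates 1 and 4, at 0.23 TPM, and its lowest HM pair replicates 2 and 3, at 0.825 TPM. All these correlations rest on 18 libraries, many of them alike within a line, and are a description.

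**Figure D3:**
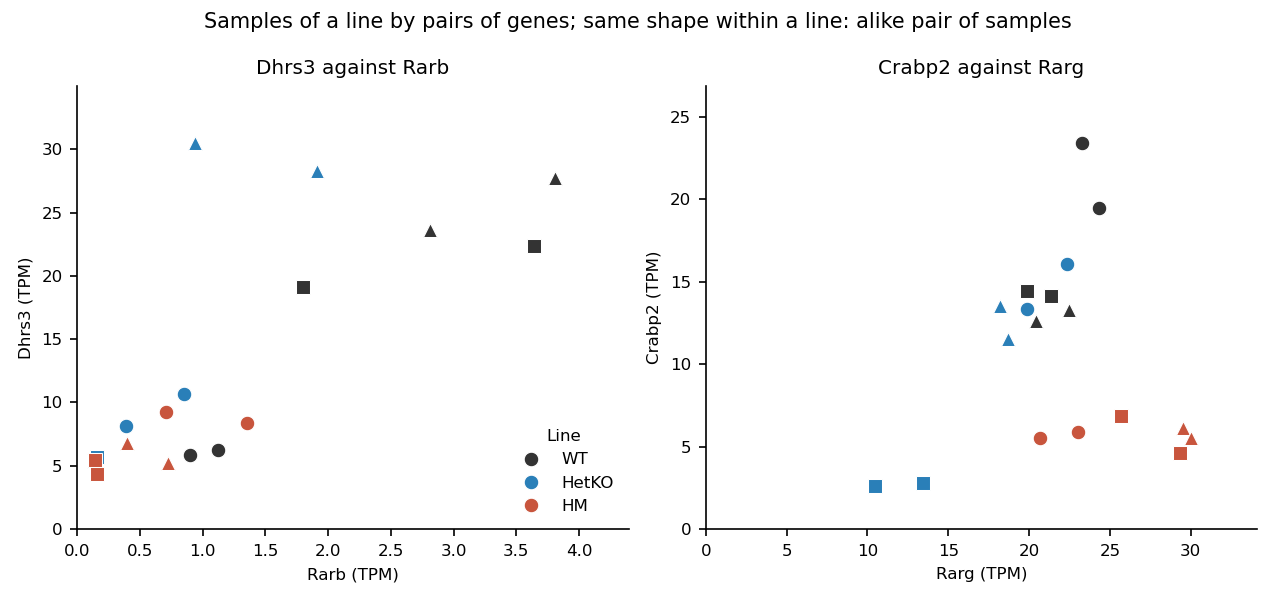
TPM of pairs of genes against each other (linear axes, both in TPM), with 1 point for each of the 18 samples, coloured by line and with 1 shape for each alike pair. Rarb and Dhrs3 varied together within lines (Pearson correlation 0.86 with the line means taken out), and Rarg and Crabp2 were both low in HetKO replicates 2 and 5, the points with Crabp2 at 2.61 and 2.81 TPM.

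Over the same 18 samples and 13955 genes that averaged 1 TPM or more, the genes most like each member were listed by the correlation of log2(TPM + 1). For Crabp2 these were Mfng (0.977), Ripor1 (0.952) and Arhgap8 (0.948), and for Dhrs3 they were Smg6 (0.958), Nek2 (0.946) and Tmem178b (0.945). Mfng, for example, averaged 7.13 TPM in WT, 4.58 in HetKO and 2.41 in HM. Rarb was most like Zfp946 (0.911), Hvcn1 (0.905) and Ppfibp2 (0.901), and Rarg most like Myo1c (0.934), Aff3 (0.924) and Atcay (0.918). Rxra was most like Plekhm1 (0.951), Inpp5f (0.949) and Ajuba (0.948), of which Plekhm1 had 0.38 and Inpp5f 0.41 once the line means were taken out. Cyp26a1 had the lowest of these values, with Plxnb1 (0.894), Cyb5r1 (0.881) and Urm1 (0.874).

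Genes around the members in the pathway were read from lists of other receptors, transporters, enzymes, cofactors and induced genes. The list of retinaldehyde and retinoic acid enzymes also holds Dhrs3, which acts in the reverse direction, so its counts give no direction of synthesis. Of its 16 genes, 10 were tested between HM and WT. With members included, 1 was higher and 5 lower, with a median of -0.34, where 19.4% of all genes were higher and 32.0% lower. Without members it was 1 higher and 3 lower of 8, and 1 higher and 2 lower on pair means. Aldh1a3, which like Aldh1a2 makes retinoic acid from retinaldehyde, was the one that rose. It averaged 4.74 TPM in WT, 3.09 in HetKO and 8.82 in HM, and the 3 lines did not overlap. Its log2 fold change was 0.76 between HM and WT (limma adjusted p = 0.000414), -0.50 between HetKO and WT (limma adjusted p = 0.014, 0.385 on pair means) and 1.25 between HM and HetKO (limma adjusted p = 5.93e-05). Aldh1a3 thus had a mean TPM above that of Aldh1a2 in all 3 lines, and Aldh1a1, the other enzyme of this kind, was at 0.183 TPM or less in each line mean. The dehydrogenases Rdh14, Rdh11 and Rdh5 fell in HM, at -0.73, -0.70 and -0.61 (limma adjusted p = 0.000217, 0.00043 and 0.00676), beside Rdh10 and Dhrs3. Rdh5 did not pass on pair means (limma adjusted p = 0.0827) or after quantile normalization (0.0619). Rdh14 and Dhrs4 were the others lower in HetKO than in WT, at -0.38 and -0.34 (limma adjusted p = 0.0383 and 0.037), calls that neither kept on pair means.

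Of 10 genes of retinol uptake, storage and transport, 6 were tested between HM and WT, with 1 higher and 2 lower. This is close to the background, where 19.4% of all genes were higher and 32.0% lower. Fabp5, a fatty acid-binding protein that can also carry retinoic acid, was far above the carriers Crabp1 and Crabp2 in level, at 296 TPM in WT, 158 in HetKO and 529 in HM, without overlap of the lines. It rose by 0.82 between HM and WT (limma adjusted p = 3.75e-05) and by 1.74 between HM and HetKO (limma adjusted p = 2.23e-06), while it was -0.92 between HetKO and WT (limma adjusted p = 0.000254, 0.0924 on pair means). Fabp5 and Crabp2 therefore went opposite ways between HM and WT, and both had a lower mean in HetKO than in WT. Stra6, the cell-surface retinol importer, averaged 1.43 TPM in WT and 0.717 in HM, at -0.49 (limma adjusted p = 0.0463, 0.198 on pair means and 0.221 when centred).

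**Figure D4:**
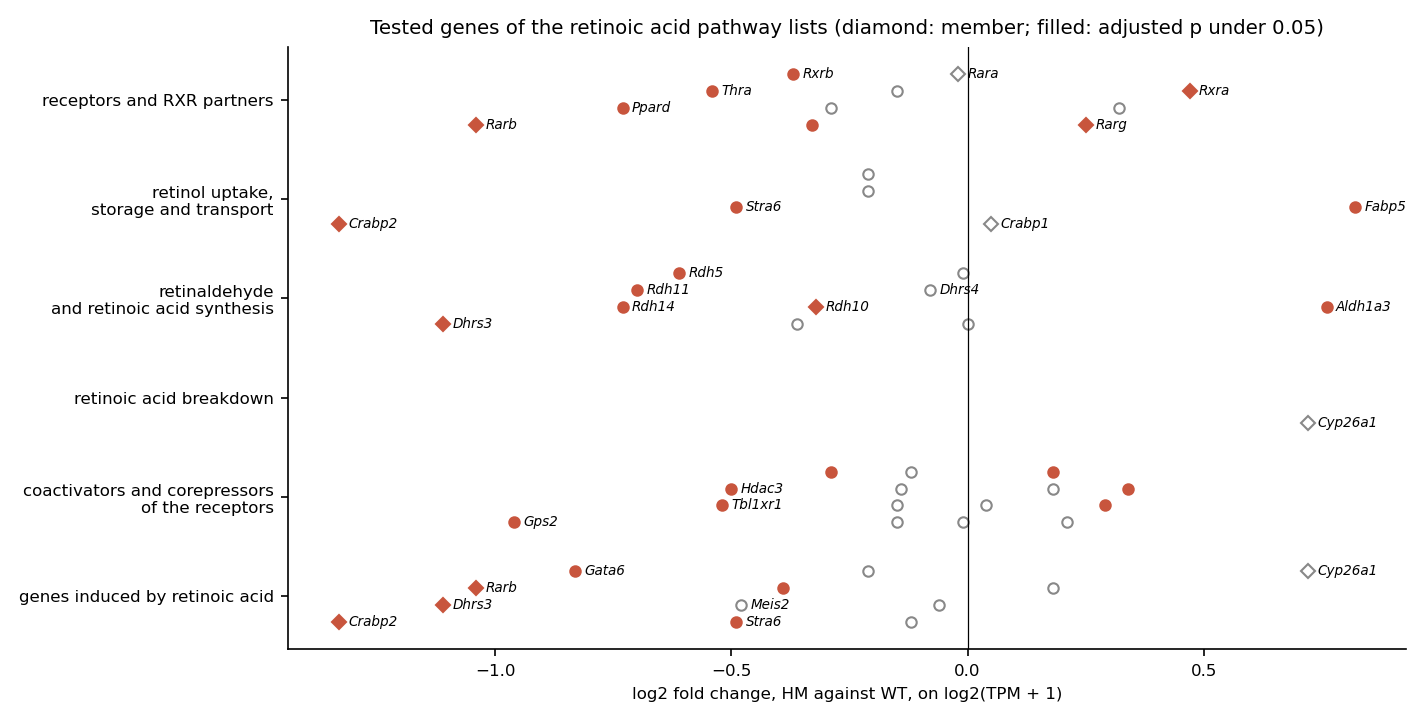
Log2 fold change between HM and WT on the log2(TPM + 1) scale (x axis) of each tested gene of the pathway lists (rows), with diamonds for the 10 genes described here, filled points where the limma adjusted p was under 0.05, and most of the named genes labelled. Fabp5 at 0.82 and Aldh1a3 at 0.76 lie to the right, and Gps2 at -0.96, Gata6 at -0.83 and the members Crabp2, Dhrs3 and Rarb to the left.

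Of the 16 receptors and RXR partners, 11 were tested between HM and WT, with 2 higher, Rarg and Rxra, and 5 lower, among them Rarb. The others were the fatty acid receptor Ppard at -0.73, the thyroid hormone receptor Thra at -0.54, Rxrb at -0.37 and Nr1h2 at -0.33, the last named after its value was seen (limma adjusted p = 0.00298, 0.00222, 0.000989 and 0.00481). On pair means 2 of these 4 passed, Thra (limma adjusted p = 0.0498) and Rxrb (0.0476), and Ppard did not (0.0532). When centred, the list without members held 1 higher and 3 lower, Ppard, Thra and Rxrb. Rxrb was then near the threshold (limma adjusted p = 0.0495), and Nr1h2 was not called lower. Rxrb had a higher level than Rxra in each line, with a mean of 51.6 TPM in WT, 47.6 in HetKO and 39.9 in HM, and so fell where Rxra rose. Of the 15 coactivators and corepressors tested, 3 were higher and 4 lower, beside 19.4% and 32.0% of all genes, with 5 higher and 2 lower when centred and 0 higher and 3 lower on pair means. Gps2, Tbl1xr1 and Hdac3, subunits of the corepressor complex that unliganded RARs recruit, were at -0.96, -0.52 and -0.50 (limma adjusted p = 0.000129, 0.0195 and 4.74e-05), with Tbl1xr1 not called when centred (0.0754) or on pair means (0.0562). The breakdown list held Cyp26a1 and its relatives Cyp26b1 and Cyp26c1, which had line means of at most 0.133 TPM and were not tested.

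Of 22 genes known to be induced by retinoic acid, 12 were tested between HM and WT, with 0 higher and 6 lower and a median of -0.44, beside 32.0% of all genes lower. No gene of the list was higher at an adjusted p under 0.05 under centring or quantile normalization either, the members left out. The members Rarb, Crabp2 and Dhrs3 make up 3 of the 6. Without members, 8 genes were tested and 3 were lower, Gata6 at -0.83, Stra6 at -0.49 and Tgm2 at -0.39 (limma adjusted p = 0.00625, 0.0463 and 0.023), with a median of -0.30. None of these 3 passed on pair means, and 1 passed when centred. Rarb, Gata6 and Stra6 averaged under 1 TPM in HM and entered the fit through their WT level, which fixes their direction, so the count of the list is a description only. Stra6 and Tgm2 had their lowest mean in HetKO, at 0.523 and 1.76 TPM, beside 0.717 and 3.24 TPM in HM, and Tgm2 was -1.02 in HetKO relative to WT (limma adjusted p = 0.00168) and 0.63 in HM relative to HetKO (limma adjusted p = 0.0266). Meis2 was at -0.48 (limma adjusted p = 0.0679). Hoxb1, induced early by retinoic acid, averaged at most 0.223 TPM in a line and was not tested. Cyp26a1, of the same list, was at 0.72 without passing.

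The 3′ UTRs of the members were searched for matches to bases 2 to 8 of miRNAs of the study, since HM and HetKO cells carry altered Dicer, the enzyme that cuts miRNA precursors. The longest annotated 3′ UTR of each gene was used. Mature sequences from RefSeq are shown for 3 of the seeds that members matched, with the seed in capitals.
miR-15b-5p: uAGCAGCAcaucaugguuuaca
miR-16-5p: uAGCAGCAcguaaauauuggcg
miR-7a-5p: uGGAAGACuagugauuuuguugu
miR-17-3p: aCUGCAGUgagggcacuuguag
miR-20b-3p: aCUGCAGUgugagcacuucuag
The seed shared by miR-15b-5p and miR-16-5p was matched in Rarb, Rarg, Rxra and Rdh10, as in 24.8% of the 12113 tested genes with a 3′ UTR. These sites are shown on the gene's strand with the match in capitals.
Rarb: atttttacTGCTGCTtagttttt
Rarg: aggggagaTGCTGCTtagctgat
Rxra: taaggctaTGCTGCTgtcacccc
Rdh10: ttaccaccTGCTGCTtgattttc
Of these 4, Rarg and Rxra were higher and Rarb and Rdh10 lower in HM than in WT. The miR-7a-5p seed was matched in Dhrs3 and Rdh10, as in 14.0% of genes, and both were lower in HM. The seed shared by the passenger strands miR-17-3p and miR-20b-3p was matched in Dhrs3, as in 16.7% of genes, at the site shown next.
Dhrs3: ggagaggaACTGCAGcccagtcc
Rdh10 also matched miR-7a-1-3p, as did 20.8% of genes. In all, 5 of the 10 members had a match to any of the 5p seeds searched, beside 45.0% of genes, and 2 to any of the passenger seeds searched, beside 35.5%. Crabp2, with a 3′ UTR of 339 bases, Cyp26a1, with 185, and Rara, Crabp1 and Aldh1a2 had no match to the seeds searched. A match is a description of the letters in the 3′ UTR and not a measured site.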

How the data were processed

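Poly(A) mRNA was sequenced from 6 samples of each line. The deposited values are TPM that the authors obtained with RSEM from pairs joined by BBMerge, with cutadapt, STAR and mm10 named in the submitters' processing notes. TPM keeps no depth, so no interval or detection floor was set. All 55450 gene identifiers matched GENCODE vM21 (GRCm38). The members and lists were chosen with earlier results of these data known. Comparisons used limma 3.58.1 (R 4.3.3) on log2(TPM + 1) with a trended prior, each on its own 12 samples. On simulated data it recovered 171 of 200 genes changed 2-fold among the 14043 of HM against WT, with 4 false calls, 168 among the 13999 of HetKO against WT, with 13 false calls, and 165 among the 13762 of HM against HetKO, with 13 false calls. The simulated samples had independent noise, without the alike pairs of the real ones, and only 200 genes changed. Its false calls therefore do not measure those in the real data. Named genes were the members, the 3 largest HM against WT changes of each list, called enzymes of the synthesis and breakdown lists, the 3 genes most like each member whose line means differed by 1.5 times, Dicer1 and markers. Tgm2 and Nr1h2 were named after their values were seen. The alternatives were other filters, a pseudocount of 0.1, centring, quantile normalization, a single fit of 3 lines, a test with unequal variances, the replicate block, pair means, leaving out HM replicates 2 and 3 or HetKO replicates 2 and 5, and a limit of 1.5-fold. Python 3.11.15, numpy 2.4.6 and pandas 2.3.3 were used for the rest. Proteins were not used here. Some genes that the naming rule picks are not reported here.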

Additional observations from a re-analysis of the deposited data

How the results depend on the processing

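Of 294 refits of single members, 260 kept the direction and the side of the threshold. Between HM and WT, 7220 genes passed, against 3414 on pair means and 3008 with a limit of 1.5-fold. Members called higher were 1 in place of 2 with no filter, with 3 lines in a single fit, with unequal variances and on pair means, and 0 with the 1.5-fold limit. Members called lower were 1 in place of 4 on pair means. Between HetKO and WT, 1421 genes passed, against 852 with unequal variances, 35 on pair means and 666 with the 1.5-fold limit, and members called lower were 1 in place of 0 with 3 lines in a single fit and without HetKO replicates 2 and 5. Between HM and HetKO, 4765 genes passed, against 454 on pair means and 2099 with the 1.5-fold limit. There, members called higher were 0 on pair means and 1 with the 1.5-fold limit in place of 2, and 3 with no filter, with at least 1 TPM in at least 6 samples, when centred, with 3 lines in a single fit, without HetKO replicates 2 and 5 and without HM replicates 2 and 3, and members called lower were 2 in place of 0 without HetKO replicates 2 and 5. Fewer replicates make pair means a smaller test by construction. Leaving out HM replicates 2 and 3 or HetKO replicates 2 and 5 favours some calls by construction, as stated for the members above. The cause of the other changes was not tested.

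Sign changes were seen only for members that did not pass in limma. Between HM and WT, Rara was 0.16 when centred and 0.06 when quantile normalized, and Crabp1 -0.10 without HM replicates 2 and 3. Between HetKO and WT, Rxra was 0.00 when centred and 0.08 when quantile normalized, and Dhrs3 0.15 without HetKO replicates 2 and 5. Between HM and HetKO, Rdh10 was 0.00 when centred and 0.04 without HetKO replicates 2 and 5. Centring moved the share of HetKO against WT calls that were higher from 36.5% to 50.7%, and that of HM against HetKO calls from 40.4% to 60.9%.

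Replicate numbers come from the labels, which do not say that equal numbers were grown together, and same-numbered samples deviated together little (mean correlation of 0.0051 for HM against WT, 0.062 for HetKO against WT and 0.021 for HM against HetKO). With this number as a replicate block, 6889, 1206 and 4200 genes passed in these comparisons. Members called between HM and WT were then 1 higher and 3 lower, Rarg and Dhrs3 being lost, and no member call changed in the other comparisons.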

Other observations

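The 10 genes and 3 lines formed 30 sets of 6 samples. Of these, 0 had a sample whose gap to its nearest neighbour passed the limit for an outlying value. By chance 1.5 would pass if the samples were independent. In alike pairs, a pair mate beside an extreme value hides the gap, as for Crabp2 at 2.61 and 2.81 TPM in HetKO replicates 2 and 5. The result therefore does not show that outlying samples are absent.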
